A study of Mus musculus with 6 samples.

Results

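Heat shock proteins, their co-chaperones and the chaperonins form the folding machinery of the cell. The genes described here were taken by symbol. They are the probe sets annotated with exactly 1 gene whose symbol starts with Hspa, Hsp90, Dnaja, Dnajb or Dnajc, starts with Hspb, Bag or Cct2 to Cct8 as numbered genes, or equals Hsph1, Hspd1, Hspe1, Tcp1 or Hsf1. The rule found 109 probe sets of 86 genes, among 21789 such probe sets of 19938 genes on the array. They comprised 13 Hsp70 and Hsp110 genes, 2 Hsp90 genes, 17 Dnaja and Dnajb genes, 28 Dnajc genes, 8 small heat shock protein genes, the Hspd1 and Hspe1 pair, 10 genes of the CCT chaperonin and 6 Bag genes. Hsf1, Hsp90ab1 and Hspa1b had no probe set of their own under the rule and were not analysed here, except that Hspa1b shares a probe set with Hspa1a.

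The samples were keratinocytes cut by laser from the leading edge of the new epithelium in fixed mouse skin wounds, 3 days after wounding, with the sections of a sample pooled in 1 tube. The diabetic mice (3 samples) had been fed high fat and high fructose from 8 weeks of age, for 16 weeks. The normal mice (3 samples) had a control diet over the same period. No source used here gives the strain, the sex or the number of animals behind a sample. Both groups were wounded, so an unwounded level was not measured. The titles call the samples biological replicates, no label ties each to its own mouse, so a p-value here covers only how these samples vary, which may be technical.

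Hsp70 chaperones bind exposed hydrophobic stretches of client proteins in a cycle driven by ATP. J-domain proteins (the Dnaj families) bring clients and start ATP hydrolysis, while Hsp110 and Bag proteins release the nucleotide. Hsp90 finishes the folding of kinases and receptors, small heat shock proteins hold unfolded clients, and the CCT ring folds actin and tubulin. Heat shock factor 1 switches on the inducible members through heat shock elements in their promoters. In skin, several members are known to respond to heat and injury of the epidermis.

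No chaperone gene differed between diabetic and normal keratinocytes past the adjusted threshold. The constitutive Hsp70 gene Hspa8 had the largest difference of the 86, at 1.73 on the log2 scale (SE 0.66), but its groups overlapped and its adjusted p was 0.839. The other 85 genes differed by between -0.35 and 0.47, a fold of 1.38 at most. Of all 86, 43 were higher and 43 lower in diabetic samples, with a median difference of -0.0018, against -0.0039 over all genes.

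Values are given as log2 signals of a probe set, and every difference is diabetic minus normal (n = 3 arrays per group). Differences were tested with limma, with Benjamini-Hochberg adjustment over the 19938 genes, 1 probe set per gene. At an adjusted p under 0.05, 0 of 86 chaperone genes were called, where the share called over all genes was 0%. At an unadjusted p under 0.05 there were 9 chaperone genes (10.5%), where the share over all genes was 5.56%. They divide into 6 higher in diabetic samples, against 2.64% of all genes, and 3 lower, against 2.92%. An ordinary linear model per gene put 5 of 86 chaperone genes under 0.05, beside 1037 of all 19938 genes, and called 0. Leaving out diabetic replicate 1 made the 9 into 4, as did leaving out normal replicate 3. They became 5 when normal replicate 1 was left out. Over all genes the count was 1109 with every array, and ran from 911 to 1391 over the 6 fits that left out 1 array. Among genes above background, 3 chaperone genes lay under 0.05. Fewer genes were tested there, so the 3 and the 9 are not like counts. The 3 diabetic and 3 normal values did not overlap for 14 chaperone genes (16.3%), 10 with the diabetic values above and 4 with them below. Over all genes this share was 10.7%, made of 5.02% above and 5.66% below. The 10 were Hspa2, Hspa4l, Dnaja1, Dnajb1, Dnajb7, Dnajc16, Hspb7, Cct4, Bag5 and Bag6, and the 4 were Hspa9, Hspe1, Dnajc6 and Dnajc14. In laser-captured tissue, fewer cells of a type and less RNA per cell cannot be told apart.

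**Figure D1:**
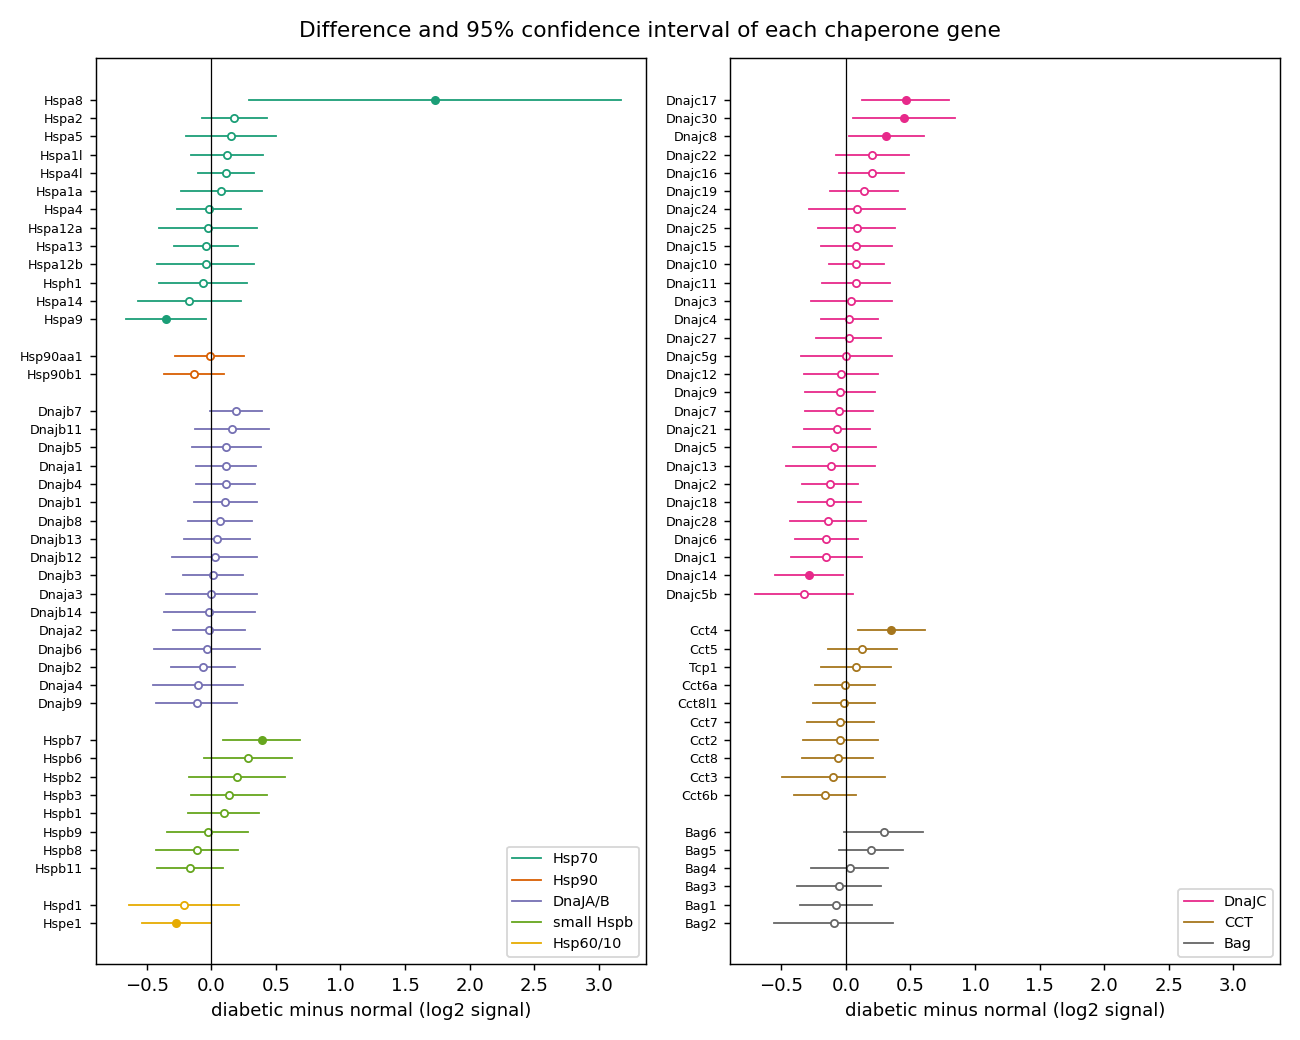
Difference between diabetic and normal samples (log2 signal, x axis) for each of the 86 chaperone genes, grouped by class, with bars for limma's 95% confidence interval. Filled points have an unadjusted p under 0.05 and open points do not. Apart from Hspa8 at 1.73, all points lie between -0.35 and 0.47.

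**Figure D2:**
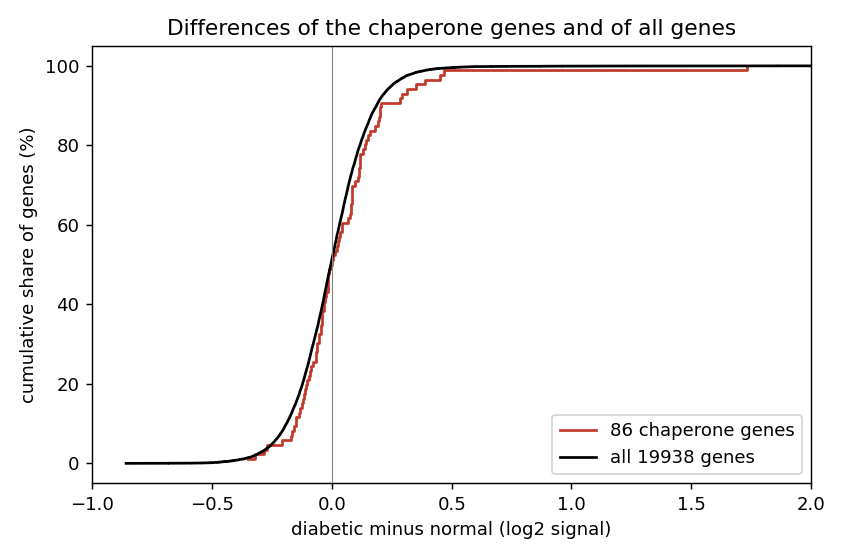
Cumulative share of genes (%, y axis) by difference between diabetic and normal samples (log2 signal, x axis), for the chaperone genes in red and all genes in black. Both curves cross 0 near their middle, with medians of -0.0018 and -0.0039. The x axis ends at 2, below the highest gene at 2.51.

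Most chaperone genes were dim on these arrays. Smell and pheromone receptor genes (symbols Olfr, Vmn1r and Vmn2r, 1194 genes), which belong to sensory neurons, served as background: each array's limit was their 95th percentile, between 1.98 and 2.12. Of the 86 genes, 16 (18.6%) exceeded it on all 6 arrays, 30 on some and 40 (46.5%) on none, where over all genes 17.4% exceeded it on all and 51.5% on none. For genes that do not exceed the limit the array gives no more than an upper bound, and a small signal difference there does not bound the difference in RNA. Diabetic samples had 37, 33 and 25 chaperone genes over the limit, against 25, 23 and 20 in normal samples. Among all genes the share over it was 35.3%, 36.6% and 29.4% in diabetic samples, against 27.4%, 28.4% and 28.7% in normal samples. The limit itself was lower for diabetic replicates 1 and 2, at 1.98 and 2.01, than for diabetic replicate 3, at 2.11. In normal samples it was 2.11, 2.11 and 2.12. The part of the lower limits and of the shares over all genes in the chaperone counts was not tested. The keratinocyte label rested on few bright markers: of 20 keratinocyte genes 4 exceeded the limit on all arrays (Krt15, Itgb4, Krt10 and Sfn), and Cdh1, the gene of the E-cadherin whose staining guided the capture, exceeded it on none.

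**Figure D3:**
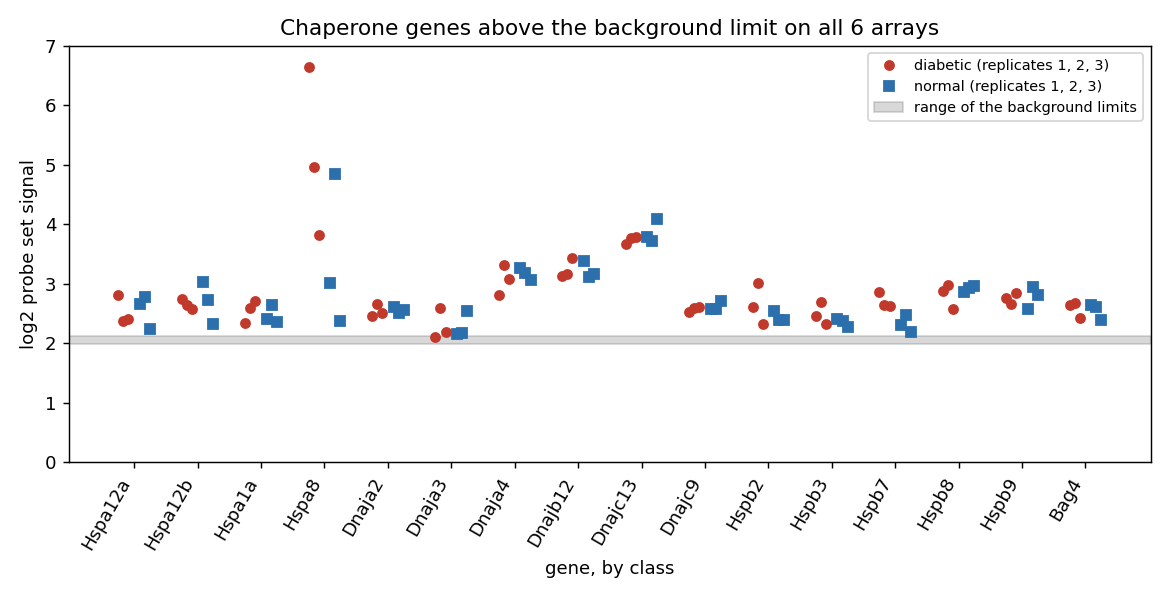
Log2 signal (y axis) of the 16 chaperone genes above the background limit on all 6 arrays, 1 point per array, with diabetic samples as red circles left of normal samples as blue squares. The grey band spans the limits of the 6 arrays, 1.98 to 2.12. Only Hspa8 spreads over more than 1 unit within a group.

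Hspa8 encodes Hsc70, the constitutive cytosolic Hsp70 that also strips clathrin from vesicles. Its probe set 10584572 read 6.64, 4.97 and 3.81 in diabetic samples, against 3.01, 4.84 and 2.36 in normal samples. Diabetic replicate 1 was highest, and normal replicate 2 lay above diabetic replicate 3, so the groups overlapped. The means were 5.14 ± 1.42 in diabetic and 3.41 ± 1.28 in normal samples (SD, n = 3 each), with a 95% confidence interval of the difference from 0.29 to 3.17. In limma the unadjusted p was 0.0225 and the adjusted p 0.839, and an exact two-sided permutation test over the 6 samples gave p = 0.2, where 0.1 is the smallest it allows. With robust variance estimates the unadjusted p in limma was 0.162, and with an ordinary linear model it was 0.193. Without diabetic replicate 1 the difference was 0.98.

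Hspa8 had another pair of probe sets annotated with it alone, and both were dim. Only the annotation ties them to Hspa8, and where they lie on the genome was not checked. Probe set 10528021 read 2.63, 1.79 and 2.16 in diabetic samples, against 1.72, 1.91 and 1.60 in normal samples, a difference of 0.45. Probe set 10368025 read 2.17, 1.72 and 1.87 in diabetic samples, against 1.74, 1.78 and 1.73 in normal samples, a difference of 0.17. In both, diabetic replicate 1 was the highest array and the groups overlapped. With the mean of the 3 probe sets standing for the gene, the difference was 0.78 in place of 1.73.

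The span of Hspa8 on mouse chromosome 9 also holds the small nucleolar RNA genes Snord14c, Snord14d and Snord14e, which guide the processing and modification of ribosomal RNA. Probe set 10584576, annotated with Snord14d, Snord14c and Hspa8 together, read 7.91, 4.75 and 4.11 in diabetic samples, against 3.10, 3.14 and 3.23 in normal samples. Its companion 10584578 read 7.89, 4.73 and 4.09 in diabetic samples, against 3.08, 3.37 and 3.20 in normal samples. Here the groups did not overlap, and diabetic replicate 1 again stood highest. The Snord14e probe set 10584580 read 4.15, 2.32 and 2.79 in diabetic samples, against 2.46, 2.30 and 2.82 in normal samples, so that diabetic replicate 1 alone was high. The joint probe sets differed by 2.43 and 2.36 (without diabetic replicate 1, by 1.27 and 1.19) and Snord14e by 0.56. Over all 35556 probe sets in limma their adjusted p-values were 0.874 for each joint probe set and 0.893 for Snord14e. Normal replicate 2, at 4.84 for the Hspa8 probe set, read 3.14 and 3.37 for the joint probe sets. The part of the small nucleolar RNAs in the Hspa8 signal was not tested.

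**Figure D4:**
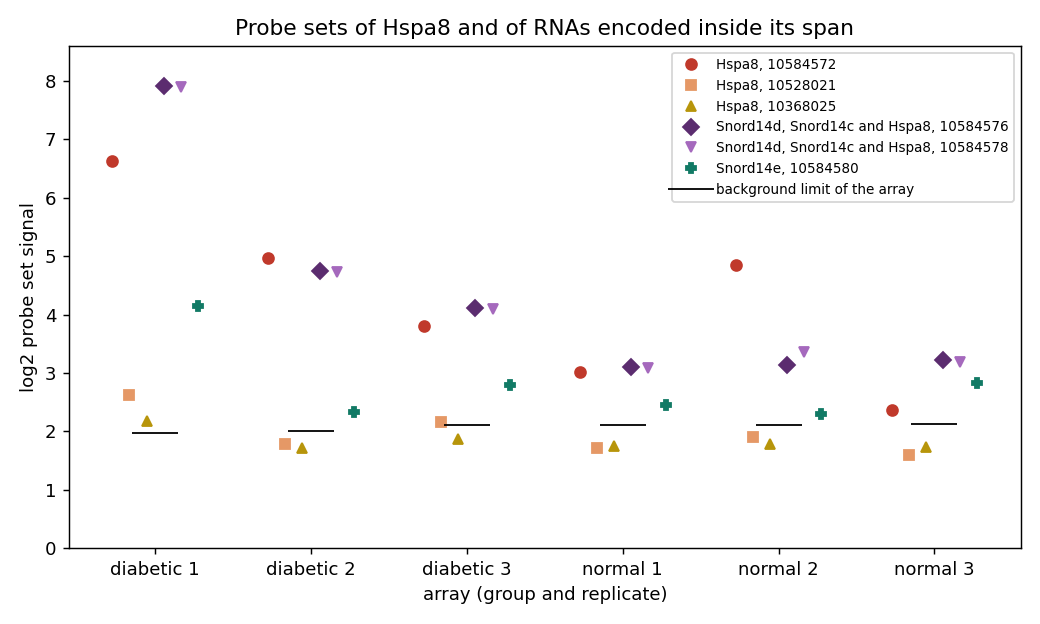
Log2 signal (y axis) on each array (x axis) of the 3 probe sets of Hspa8, of the joint pair naming Snord14d, Snord14c and Hspa8, and of Snord14e. Black dashes mark each array's background limit. Diabetic replicate 1 is highest for all 6 probe sets, and 2 of the 3 Hspa8 probe sets lie near the limit.

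The stress-inducible Hsp70 gene Hspa1a read 2.35, 2.59 and 2.71 in diabetic samples, against 2.41, 2.64 and 2.36 in normal samples, a difference of 0.08 (95% confidence interval -0.24 to 0.39). The probe set 10450367 shared by Hspa1a and its near-identical neighbour Hspa1b, whose signals cannot be separated there, read 3.99, 4.51 and 4.02 in diabetic samples, against 3.56, 3.82 and 3.95 in normal samples. These groups did not overlap, with a difference of 0.40 and an adjusted p of 0.877 in limma over all probe sets. Hsph1, the Hsp110 exchange factor, read 1.69, 2.16 and 1.83 in diabetic samples, against 1.74, 1.91 and 2.22 in normal samples, a difference of -0.06. Its relatives Hspa4 and Hspa4l differed by -0.02 and 0.11 and stayed under the limit on every array. The divergent members Hspa12a and Hspa12b, above the limit on all arrays, differed by -0.02 and -0.04.

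Promoters of the members are shown here for elements of signals known to drive chaperone genes. These are heat shock factor for cytosolic and mitochondrial stress, and the unfolded protein response for the endoplasmic reticulum. RefSeq promoter sequences of assembly GRCm38.p6 (250 bases before to 50 after a start) were found for 71 of the 86 genes. The heat shock element was searched on both strands as 3 units that alternate between GAA and TTC, starting with either, with 2 free bases after each of the first pair. The endoplasmic reticulum stress element was searched on both strands as CCAAT, 9 free bases and CCACG. The heat shock element occurred in 4 of the 71 genes (5.63%), against 179 of 27025 genes with a promoter (0.662%), and the stress element in 3 (4.23%), against 37 (0.137%). The shorter forms GAANNTTC and TTCNNGAA, which also lie inside every longer element, occurred in 20 of the 71 (28.2%), against 17% of all genes. A match is a description of these letters and not a shown binding site. Capitals mark the elements, with 10 bases on each side, 5′ to 3′ on the strand of the gene.
Hspd1 (chr1:55088049-55088086, minus strand): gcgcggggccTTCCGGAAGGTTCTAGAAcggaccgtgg
Hspe1 (chr1:55088049-55088086, plus strand): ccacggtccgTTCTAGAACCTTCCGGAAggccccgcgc
Hsph1 (chr5:149636278-149636310, minus strand): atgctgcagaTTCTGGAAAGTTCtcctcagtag
Dnajb6 (chr5:29735842-29735874, plus strand): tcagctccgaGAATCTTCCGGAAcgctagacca
Hspa5 (chr2:34772015-34772053, plus strand): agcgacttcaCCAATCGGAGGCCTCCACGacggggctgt
Dnajc3 (chr14:118937817-118937855, plus strand): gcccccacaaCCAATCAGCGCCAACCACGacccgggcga
Hsp90b1 (chr10:86705523-86705666, minus strand): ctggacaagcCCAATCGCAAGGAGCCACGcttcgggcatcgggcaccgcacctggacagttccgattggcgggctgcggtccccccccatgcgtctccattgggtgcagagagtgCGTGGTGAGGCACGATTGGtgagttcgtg
The first pair of lines is the same stretch of DNA, since Hspd1 and Hspe1 are transcribed away from each other and share it, with 2 overlapping elements.

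Among the genes with the heat shock element of 3 units, none passed the test. They do not stand for all genes driven by heat shock factor, since the stress-inducible Hspa1a and Bag3 held only the shorter form. Hspe1, the mitochondrial Hsp10 lid, read 1.42, 1.70 and 1.56 in diabetic samples, against 1.79, 1.71 and 1.99 in normal samples. Its groups did not overlap, diabetic samples being lower by a difference of -0.27 (SE 0.12, unadjusted p 0.0467 and adjusted p 0.889 in limma), under the limit on every array. Hspd1, the Hsp60 barrel that Hspe1 closes, read 1.94, 1.91 and 2.00 in diabetic samples, against 2.70, 1.81 and 1.97 in normal samples. Its difference of -0.21 came from normal replicate 1 and was 0.06 without it. The second probe set differed by 0.05 for Hspd1 and by -0.15 for Hspe1. Dnajb6, a suppressor of protein aggregation, differed by -0.03 and Hsph1 by -0.06.

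Hspa9 encodes mortalin, the mitochondrial Hsp70 that pulls proteins through the inner membrane. It read 1.25, 1.60 and 1.57 in diabetic samples, against 1.67, 1.72 and 2.09 in normal samples. The groups did not overlap, with a difference of -0.35 (SE 0.14, unadjusted p 0.0300 and adjusted p 0.859 in limma), and all 6 values lay at or under the limit. Without normal replicate 3 the difference was -0.22. Of its mitochondrial J-domain partners, Dnaja3 differed by 0.0013 and was above the limit on all arrays, while Dnajc19 and Dnajc15, parts of the import motor, differed by 0.14 and 0.08.

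None of the endoplasmic reticulum chaperones named here passed the test. Hspa5, the BiP gene and the main Hsp70 of that compartment, read 1.81, 2.03 and 1.77 in diabetic samples, against 1.47, 2.10 and 1.59 in normal samples, a difference of 0.15 (95% confidence interval -0.20 to 0.50). Leaving out normal replicate 1 gave 0.025, leaving out normal replicate 2 gave 0.34, and 1 of the 6 Hspa5 values exceeded the limit. Hsp90b1, the Grp94 gene, differed by -0.13 and stayed under the limit on every array. Dnajc3, an inhibitor of the kinase PERK, differed by 0.04, its pair of probe sets having identical values on all arrays. Dnajb11, the ERdj3 gene, read 2.44, 2.31 and 2.15 in diabetic samples, against 2.16, 2.28 and 1.98 in normal samples, a difference of 0.16 with overlapping groups. Dnajb9, the ERdj4 gene, differed by -0.11.

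The cytosolic Hsp90 gene Hsp90aa1 read 2.23, 2.07 and 2.24 in diabetic samples, against 2.19, 2.30 and 2.08 in normal samples. The difference was -0.01, with a 95% confidence interval from -0.28 to 0.25, and the gene's other probe sets differed by 0.01 and -0.07.

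Of the 17 Dnaja and Dnajb genes, 11 were higher and 6 lower in diabetic samples, with a median difference of 0.03, and 0 had an unadjusted p under 0.05. Dnajb1, the stress-inducible Hsp40, read 1.95, 1.94 and 1.94 in diabetic samples, against 1.69, 1.88 and 1.92 in normal samples. Its diabetic values lay above every normal value, with a difference of 0.11 and an unadjusted p of 0.348 in limma, and all were under the limit. Dnaja1, a cytosolic J-domain protein, also did not overlap, at a difference of 0.12. Its second probe set differed by -0.36 with overlapping groups, so the sign of this gene depends on the probe set. Where either probe set lies on the genome was not checked. Dnajb12, which sits in the endoplasmic reticulum membrane, read 3.13, 3.16 and 3.42 in diabetic samples, against 3.38, 3.11 and 3.16 in normal samples. Dnaja4 read 2.81, 3.32 and 3.07 in diabetic samples, against 3.27, 3.18 and 3.06 in normal samples. For both genes the groups overlapped, with differences of 0.03 and -0.10.

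Of the 28 Dnajc genes, 4 (14.3%) had an unadjusted p under 0.05, where the share over all genes was 5.56%. Among the 28, 15 were higher and 13 lower in diabetic samples, with a median difference of 0.01. Dnajc17, a J-domain protein of the nucleus, read 2.69, 2.30 and 2.55 in diabetic samples, against 1.91, 2.33 and 1.91 in normal samples. Normal replicate 2 reached into the diabetic range, and the difference was 0.47 (SE 0.15, adjusted p 0.780 in limma). Dnajc30, a mitochondrial protein, read 2.18, 1.85 and 2.44 in diabetic samples, against 1.58, 2.07 and 1.47 in normal samples. Normal replicate 2 was again inside the diabetic range, and the difference was 0.45 (SE 0.18). Dnajc8, which is found with the spliceosome, read 2.02, 2.24 and 1.85 in diabetic samples, against 1.69, 1.61 and 1.87 in normal samples. Its groups overlapped by a narrow margin, with a difference of 0.31 (SE 0.13). Dnajc17 exceeded the limit on 3 diabetic arrays and 1 normal array. Dnajc30 and Dnajc8 each exceeded it on 2 diabetic arrays and 0 normal arrays.

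Dnajc14, a protein of the endoplasmic reticulum membrane, went the other way. It read 1.43, 1.65 and 1.65 in diabetic samples, against 2.02, 1.75 and 1.80 in normal samples, with no overlap and a difference of -0.28 (SE 0.12), under the limit on every array. The endosomal protein gene Dnajc13 had 15 probe sets, of which 11 were lower in diabetic samples, with differences between -0.29 and 0.18. Only 2 of these probe sets exceeded the limit on all arrays and 11 exceeded it on none. The probe set that stands for Dnajc13 read 3.67, 3.77 and 3.79 in diabetic samples, against 3.78, 3.72 and 4.09 in normal samples, overlapping, with a difference of -0.12. Dnajc6, the auxilin gene that recruits Hspa8 to clathrin coats, read 1.83, 1.83 and 1.82 in diabetic samples, against 2.09, 1.89 and 1.95 in normal samples. These groups did not overlap, with a difference of -0.15, under the limit on every array. Dnajc9, a histone chaperone, read 2.52, 2.58 and 2.60 in diabetic samples, against 2.57, 2.57 and 2.71 in normal samples, and its difference was -0.05.

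**Figure D5:**
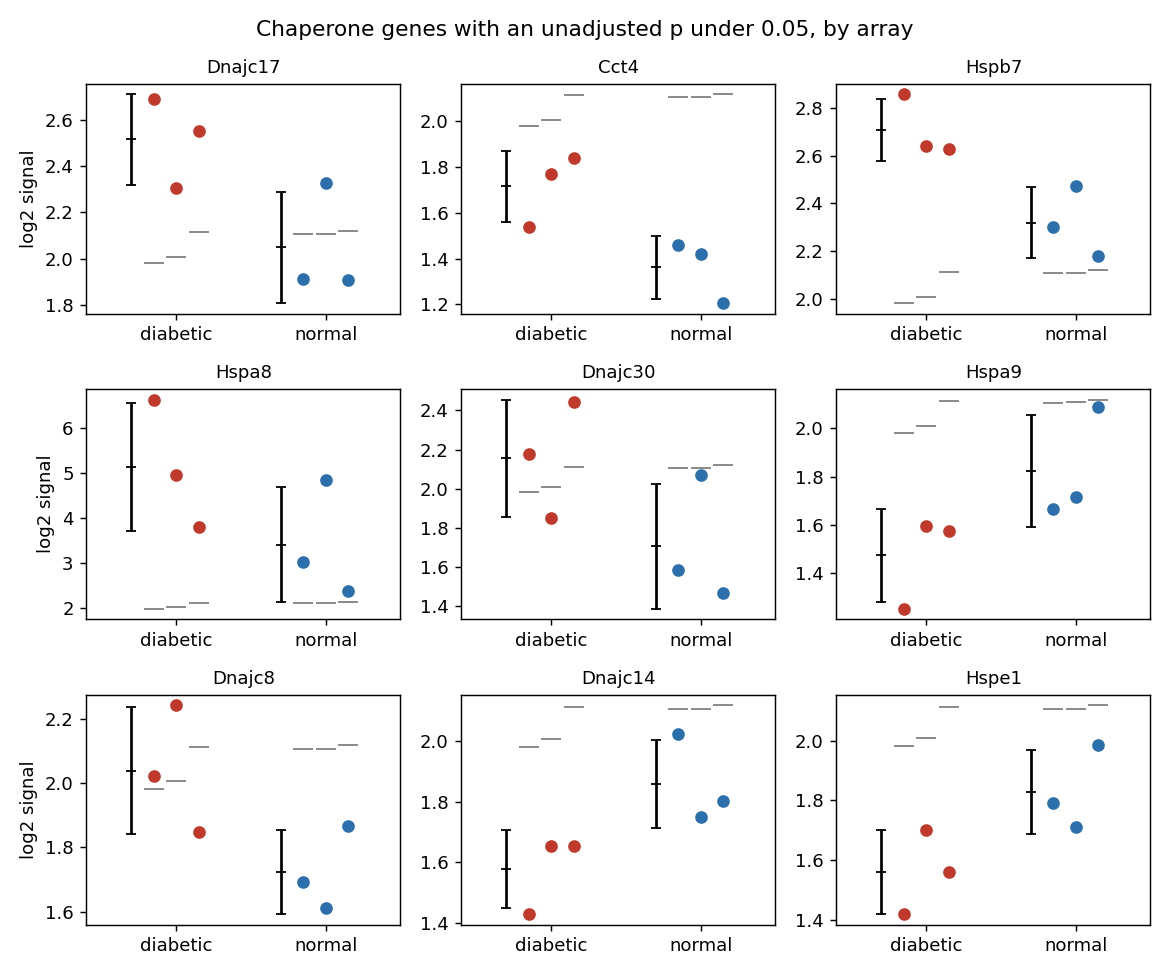
Log2 signal (y axis, its range set for each gene) by array for the 9 chaperone genes with an unadjusted p under 0.05, diabetic samples in red left of normal samples in blue. Black marks give mean ± SD (n = 3) and grey dashes each array's background limit. Groups do not overlap for 5 of the 9, and 4 of the 9 lie under the limit on every array.

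Small heat shock proteins are best known in muscle, heart and lens. Of the 8 genes here, 5 were higher and 3 lower in diabetic samples, with a median difference of 0.12, and 5 exceeded the limit on all arrays. Hspb7, a member abundant in striated muscle, read 2.86, 2.64 and 2.63 in diabetic samples, against 2.30, 2.47 and 2.18 in normal samples. The groups did not overlap, with a difference of 0.39 (SE 0.14, unadjusted p 0.0143 and adjusted p 0.809 in limma). Hspb6, the Hsp20 gene of smooth and striated muscle, read 1.96, 2.28 and 2.55 in diabetic samples, against 1.82, 2.07 and 2.05 in normal samples, overlapping, with a difference of 0.28. Without diabetic replicate 3 it was 0.14, and without diabetic replicate 1 it was 0.44. Hspb2 and Hspb3, which form a complex in muscle, differed by 0.20 and 0.14, with overlapping groups. Hspb7 kept a difference between 0.32 and 0.47 whichever array was left out.

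Skeletal muscle markers were also mostly higher in diabetic samples. Of 20 muscle markers, 16 were higher and 4 lower in diabetic samples, with a median difference of 0.07. Over all genes 48.7% were higher. On all 6 arrays 6 of them lay over the limit, and 6 never did. The summed linear signal of the 20 ran from 103.0 to 108.6 in diabetic samples and from 95.8 to 101.1 in normal samples. The 20 include Cryab, a small heat shock relative, and genes at background level, so part of this sum is background signal. The sums of 13 neutrophil markers did not overlap either, at 42.9 to 43.7 in diabetic samples and 44.9 to 49.4 in normal samples. Only 1 of these 13 lay over the limit on all 6 arrays and 8 never did, so this sum is mostly signal at background level. The part of these cell types in the small heat shock protein values was not tested. Hspb1, the Hsp27 gene known in keratinocytes, read 1.71, 1.89 and 1.66 in diabetic samples, against 1.48, 1.63 and 1.87 in normal samples. Its difference was 0.10 (95% confidence interval -0.18 to 0.37), with both groups under the limit. The second Hspb1 probe set differed by 0.12, also under the limit on every array. Hspb8, which works with Bag3 in the disposal of damaged proteins, read 2.87, 2.98 and 2.58 in diabetic samples, against 2.86, 2.93 and 2.97 in normal samples, overlapping, with a difference of -0.11. Hspb9, a testis member, differed by -0.03 and Hspb11, the gene of an intraflagellar transport protein, by -0.17.

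The CCT ring is assembled from Tcp1 and the products of Cct2 to Cct8. Of its 10 genes 3 were higher and 7 lower in diabetic samples, with a median difference of -0.03, and 9 were under the limit on every array. Cct4 read 1.54, 1.77 and 1.84 in diabetic samples, against 1.46, 1.42 and 1.20 in normal samples. The groups did not overlap, with a difference of 0.35 (SE 0.12, unadjusted p 0.0117 and adjusted p 0.780 in limma), at signals under the limit on all arrays. The other subunits of the same ring did not share that size, with differences of 0.13 for Cct5, 0.08 for Tcp1, -0.04 for Cct2, -0.09 for Cct3, -0.04 for Cct7 and -0.06 for Cct8. For Cct6a it was -0.0049, and it was -0.16 for Cct6b, the testis form. Cct8l1, which the symbol rule also takes in, differed by -0.01.

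Bag proteins release nucleotide from Hsp70 and tie it to degradation or survival pathways. Of 6 genes 3 were higher and 3 lower in diabetic samples, with 0 under an unadjusted p of 0.05. Bag6, which guards newly made membrane proteins, read 2.44, 2.44 and 2.42 in diabetic samples, against 2.35, 2.19 and 1.87 in normal samples. The groups did not overlap, with a difference of 0.29 (SE 0.14, unadjusted p 0.0584 in limma), which was 0.16 without normal replicate 3. Bag5 also did not overlap, at a difference of 0.20, under the limit on all arrays. Bag4 read 2.64, 2.67 and 2.42 in diabetic samples, against 2.64, 2.61 and 2.38 in normal samples, a difference of 0.03. Bag3, the stress-inducible member, differed by -0.05 (95% confidence interval -0.38 to 0.27).

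Proteostasis genes outside the symbol rule were read beside the members. Of 62 such partner, prefoldin, protease and stress response genes, all measured, 37 were higher and 25 lower in diabetic samples, with a median difference of 0.04. At an adjusted p under 0.05, 0 were called, and 5 had an unadjusted p under 0.05 (8.06%, against 5.56% of all genes), 3 higher and 2 lower. Naca, a subunit of the complex that meets new chains at the ribosome, read 5.18, 2.86 and 2.65 in diabetic samples, against 2.24, 2.27 and 2.50 in normal samples. As for Hspa8, diabetic replicate 1 stood highest, and the Naca difference of 1.23 was 0.42 without it. Naca had 2 probe sets, and these values come from the brighter alone.

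The small heat shock relatives among these partner genes were Cryaa and Cryab, the alpha-crystallins. Cryaa, chiefly a lens protein, read 2.40, 2.19 and 2.12 in diabetic samples, against 1.65, 1.59 and 2.00 in normal samples. Its groups did not overlap, with a difference of 0.49 (SE 0.14, adjusted p 0.780 in limma). Cryaa exceeded the limit on 3 diabetic arrays and 0 normal arrays. Cryab, also of muscle and counted among the muscle markers, differed by 0.32 (SE 0.14) with overlapping groups, and by 0.19 without diabetic replicate 2. The Hsp70 exchange factor gene Hspbp1 read 2.91, 2.85 and 2.64 in diabetic samples, against 3.16, 3.00 and 3.22 in normal samples, with no overlap and a difference of -0.33 (SE 0.14). The prefoldin subunit gene Pfdn6 differed by -0.25, and the collagen chaperone gene Serpinh1 by 0.26 with an unadjusted p of 0.0804 in limma.

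For 85 of the 86 chaperone genes the 95% confidence interval of the difference in signal lay within 2-fold in either direction, and for 75 within 1.5-fold. Over all 19938 genes the same held for 19855 and for 18121, which are larger shares than among the chaperone genes. Hspa8 was the exception at 2-fold. These intervals concern probe signal, and for dim genes they do not bound RNA.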

How the data were processed

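The deposited table holds the authors' log2 signals of 35556 probe sets on 6 arrays. The submitters' processing notes name Partek. Their background correction, normalization and summarization were not given in the sources used here. Base 2 was taken from the range of the values. Columns of other samples numbered 0. Depth does not apply, and 3 arrays per group limit the precision.

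Gene names came from the platform annotation (21789 with 1 gene, 1621 with several, 12146 not listed), with symbols updated by gene ID through a RefSeq table of GRCm38.p6 (21698 matched). The probe set with the highest mean stood for each gene, with no filter. Where each probe set lies on the genome was not checked, so several probe sets of a gene may not read the same locus. The comparison used lmFit and eBayes of limma 3.58.1 under R 4.3.3, with an intensity trend and group as the only term. The fit was tested on simulated data. Deviations of same-numbered samples from their group means correlated at -0.018, 0.0078 and 0.014 over all genes. Since 51.5% of genes exceeded the background limit on no array, this cannot exclude pairing.

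The members, gene lists, background limit and tests were chosen with earlier results of these data known. Named genes were a list of the main members whatever their values, all with an unadjusted p under 0.05, in each class the 2 with the highest mean and the 2 with the largest difference above background, and the 6 partner genes with the smallest p. Others named were chosen after their values were seen. Of the marker lists, neutrophil genes were 3 higher and 10 lower, macrophage 6 and 5, fibroblast 6 and 4, endothelial 4 and 4, and keratinocyte 9 and 11.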

Additional observations from a re-analysis of the deposited data

Results flagged for a closer look

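These 3 probe sets name several genes and so lay outside the comparison of genes. From 10 such probe sets naming a chaperone gene, they were picked because all 3 diabetic values exceeded all 3 normal values. Over the genes compared, 5.02% did so, and the share over all probe sets was not counted. The joint pair had nearly equal diabetic values, so its probe sets are not separate observations. The joint probe sets of Snord14d, Snord14c and Hspa8 differed by 2.43 (10584576) and 2.36 (10584578), and the probe set of Hspa1a and Hspa1b (10450367) by 0.40. Over all probe sets in limma their adjusted p-values were 0.874, 0.874 and 0.877.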

How the results depend on the processing

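Over 6 fits that each left out 1 array, genes called numbered 0 to 2 over all genes and 0 to 0 among chaperone genes, and counts at an unadjusted p under 0.05 ran from 911 to 1391 over all genes, from 4 to 11 among chaperone genes and from 2 to 6 among partner genes. Non-overlapping chaperone genes numbered 14 to 26 (fewer arrays overlap less by construction). Non-overlap over all genes was not counted in these fits or in the gene filters below. Such counts therefore have no share over all genes beside them. The median difference, -0.0018 with all arrays, ran from 0.015 to 0.028 and Hspa8 from 0.98 to 2.45. An ordinary linear model put 5 chaperone genes under 0.05, beside 1037 of all genes. Among genes above the median of all genes these were 5 chaperone genes, 563 genes in all, 6 not overlapping and a median difference of 0.038. Above the mean background limit they were 3, 321, 2 and 0.026, with 2 partner genes, where fewer genes were tested. Centring arrays on the median gave 3 partner genes. With a replicate block Hspa8 kept 1.73 (SE 0.48, unadjusted p 0.0046 and adjusted p 0.788 in limma). In that fit 7 chaperone genes and 2 partner genes lay under 0.05 and 0 were called. The count over all genes in that fit is not given here, so these counts are not read against it. No label says that the shared numbers pair the samples. With the 99th percentile as limit, 2 chaperone genes exceeded it on all arrays, against 16. Of 399 values of the 44 other named genes under 10 alternatives, 393 kept direction and side, and 6 changed sign: Cct6a (0.020 with quantile normalization, 0.012 with centring, 0.0055 with array weights), Dnajb12 (-0.024, quantile), Hsp90aa1 (0.0038, centring) and Dnaja1 (-0.12, mean of probe sets). Leaving out an array turned the sign in 30 of 264 values, of 19 genes: Bag3 (-0.19 to 0.048), Bag4 (-0.048 to 0.11), Cct2 (-0.15 to 0.083), Cct3 (-0.35 to 0.086), Cct6a (-0.062 to 0.051), Cct7 (-0.099 to 0.028), Cct8 (-0.16 to 0.053), Dnaja4 (-0.23 to 0.026), Dnajb12 (-0.067 to 0.11), Dnajc3 (-0.060 to 0.20), Dnajc9 (-0.071 to 0.0026), Hsp90aa1 (-0.069 to 0.041), Hspa12b (-0.23 to 0.12), Hspa1a (-0.0042 to 0.18), Hspb8 (-0.19 to 0.0066), Hspb9 (-0.13 to 0.059), Hspd1 (-0.38 to 0.061), Hsph1 (-0.19 to 0.069) and Tcp1 (-0.014 to 0.16). The causes were not tested. With no change of sign, leaving out an array moved these by over 1.5 times: Cct5 (0.030 to 0.19), Cct6b (-0.23 to -0.063), Dnaja1 (0.075 to 0.14), Dnajb1 (0.042 to 0.15), Dnajb11 (0.083 to 0.24), Dnajc13 (-0.19 to -0.0054), Hsp90b1 (-0.19 to -0.078), Hspb1 (0.0063 to 0.20), Serpinh1 (0.16 to 0.35), and, as given in the results, Bag6, Cryab, Hspa5, Hspa8, Hspa9, Hspb6 and Naca. Of the 86 chaperone genes, 40 exceeded the background limit on no array.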

Other observations

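Other probe sets naming several genes, at least 1 of them a chaperone gene, showed overlapping groups. The probe set of Dnaja1 and the microRNA gene Mir207 (10504000) read 5.74, 5.76 and 5.71 in diabetic samples, against 5.32, 5.83 and 5.62 in normal samples. The probe sets naming Dnajb14 and Pin4 differed by -0.07 and -0.08, and those naming Dnajb6 and Gm4247 by between -0.07 and 0.03.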
